A study of Mus musculus with 20 samples.

Results

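The genes described here make cholesterol or regulate its making. They were chosen by symbol: 8 genes, Hmgcs1, Idi1, Fdft1, Sqle, Lss, Cyp51, Insig1 and Srebf2, each through the probe sets that the array annotation gives to that gene alone. Of these 8, 7 had such probe sets, and Hmgcs1 was not analysed here because no probe set used here carries its symbol. The 7 genes took 88 of 182058 probe sets, and the series had 19607 genes with probe sets of their own.

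Cholesterol is built from acetyl-CoA through mevalonate to isoprenoid units, which are joined into squalene, closed into the ring compound lanosterol and trimmed to cholesterol. Idi1 makes the activated isoprenoid unit, Fdft1 joins farnesyl units into squalene, Sqle oxidises squalene, Lss closes the rings and Cyp51 removes a methyl group from lanosterol. Srebf2 encodes the transcription factor SREBP-2, which switches on this whole set, its own gene included, when sterols in the endoplasmic reticulum run low. Insig1 holds SREBP-2 with its escort Scap in the endoplasmic reticulum when sterols are plentiful, and is itself a target. Dividing lymphocytes need sterols for new membrane, and activated T cells are known to raise the pathway as they divide.

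The study profiled 20 arrays from mouse thymocytes and thymic tumours on the C57BL/6 background, in 8 groups, to learn how loss of the zinc finger repressor Gfi1 changes expression. The groups were Gfi1 KO tumours with a Notch transgene (2 arrays), Gfi1 WT tumours with it (2), Gfi1 KO tumours of mice given the mutagen ENU (3), Gfi1 WT ENU tumours (3), irradiated Gfi1 KO thymocytes (3), irradiated WT thymocytes (3), untreated KO thymocytes (2) and untreated WT thymocytes (2). All tumour mice, WT and KO, received ENU and, once a tumour was seen by ultrasound, the interferon inducer pIpC, and tumours were taken out 2 to 3 weeks later. They carried Gfi1 f/f alleles, alone in WT and with Mx1-Cre in KO. Mx1-Cre is an interferon-induced recombinase active in blood cells and in other tissues. By this design any deletion would follow tumour onset and would not be limited to the tumour. For the thymocyte mice the sources used here state neither the allele behind KO nor how strong the radiation was or when cells were taken after it. Nothing says that arrays of a group came from separate mice, so p-values measure the spread between these arrays, which may be technical.

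The label check by Gfi1 itself was uneven. Of its 8 probe sets, 3 were lower on every KO than on every WT array in Notch tumours. In irradiated thymocytes 5 were wholly lower in KO and 3 wholly higher, and in untreated thymocytes 3 were wholly lower and 4 wholly higher, with 1 probe set lower in both. The probe sets that fell thus differed between irradiated and untreated KO mice, and the sources used here do not say why. In ENU tumours 3 were wholly lower in KO and 0 wholly higher, but these were not the 3 that were lower in Notch tumours and untreated thymocytes. The probe set that fell most in untreated KO thymocytes read 10.7 to 11.01 on KO and 10.58 to 11.56 on WT ENU arrays. The check did not settle the genotype of the KO ENU tumours, which are called labelled KO where they are compared. Thymocyte markers averaged 12.26 to 12.89 on the thymocyte arrays and 11.26 to 12.4 on all tumours except KO Notch tumour 2. That tumour stood apart: its thymocyte markers averaged 9.95 and its B-cell markers 13.01, against 7.18 to 9.47 for B-cell markers in the other tumours. KO ENU tumour 1 also stood apart, with the highest macrophage and dendritic cell level (10.57). Its level of proliferation genes was low (10.8), though a KO Notch tumour read lower still (10.39). Several results that rest on either tumour are given with and without it. The array file numbers run from 45 to 50 for irradiated thymocytes and on from 51 to 65 for tumours, and untreated thymocytes lie apart at 77 to 80. Within each of these settings KO and WT arrays hold separate blocks of numbers, so neither treatment nor genotype can be told apart from array order. Arrays of the same group correlated at 0.87 to 0.988 over all probe sets.

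Values are the probe set values that the authors deposited, read as log2, and a gene's value is the middle of its centred probe sets. One unit is a doubling. Levels of different genes come from different probes and are not set against each other. In bulk tissue, fewer cells of a type and less RNA per cell cannot be told apart. A difference was called when limma's adjusted p, taken over all genes tested, was below 0.05.

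The start regions of the regulator and of 2 enzymes are shown because the 7 genes are known targets of the same factor, and these windows are where its sites would be looked for first. RefSeq on build GRCm38.p6 gave windows of 300 bases for 6 of the 8 genes, running from 250 bases before the start to the first 50 bases of the transcript. Capitals mark every match, on either strand, to the sterol regulatory element core TCACNCCA, to CCAAT, the core bound by NF-Y, and to GGGCGG, the core bound by Sp1. Both factors are known partners of SREBP-2. The motifs were chosen with the windows in view.
Srebf2, chr15:82147019-82147318, plus strand: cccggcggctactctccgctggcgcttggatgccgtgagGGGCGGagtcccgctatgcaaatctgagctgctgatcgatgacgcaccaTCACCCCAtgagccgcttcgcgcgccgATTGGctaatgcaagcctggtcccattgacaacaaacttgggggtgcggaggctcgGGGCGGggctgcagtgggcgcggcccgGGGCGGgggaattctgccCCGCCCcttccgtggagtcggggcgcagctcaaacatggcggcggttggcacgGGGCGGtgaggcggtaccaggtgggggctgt
Lss, chr10:76531355-76531654, plus strand: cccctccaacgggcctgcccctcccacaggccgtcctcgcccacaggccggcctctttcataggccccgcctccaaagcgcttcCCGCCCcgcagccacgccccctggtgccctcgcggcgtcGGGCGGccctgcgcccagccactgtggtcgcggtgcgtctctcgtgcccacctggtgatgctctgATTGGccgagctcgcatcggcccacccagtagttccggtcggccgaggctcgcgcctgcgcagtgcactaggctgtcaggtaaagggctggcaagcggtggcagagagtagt
Cyp51, chr5:4104648-4104947, minus strand: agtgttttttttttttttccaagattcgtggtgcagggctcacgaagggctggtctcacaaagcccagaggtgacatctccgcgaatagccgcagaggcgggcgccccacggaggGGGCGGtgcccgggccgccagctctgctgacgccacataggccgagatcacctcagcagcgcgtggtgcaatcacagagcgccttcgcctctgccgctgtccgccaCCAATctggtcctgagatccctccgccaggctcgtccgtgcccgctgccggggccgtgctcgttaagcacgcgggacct

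The Srebf2 window holds the element core from base -162 to -155, with a CCAAT match from -135 to -131. The Hmgcs1 window holds the core from -137 to -130. The core was in 2 of the 6 windows and in 4.36% of all 32851 windows. CCAAT was in all 6 windows, against 37.4% of all windows. GGGCGG was also in all 6, against 35.7% of all windows. A window without a match says only that these letters are not in it.

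Untreated thymocytes gave the comparison of Gfi1 KO with WT cells that had seen no radiation. All 7 genes read lower on every KO array than on every WT array. Sqle, the squalene oxidase, passed the test and was 1.38-fold lower. The median difference of the 7 genes was -0.3, against -0.02 over all 12747 genes tested. Among all genes, 53.9% lay below 0 and 33.3% had every KO array below every WT array. Of all genes, 12.3% were called and 5.49% were called lower, so 1 call among 7 is near that background. The share of 7 of 7 wholly below is larger than the 33.3% of all genes. That contrast is a description and not a test, because the members were chosen with earlier results of these data known. The 7 genes move together from array to array and are not independent.

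**Figure D1:**
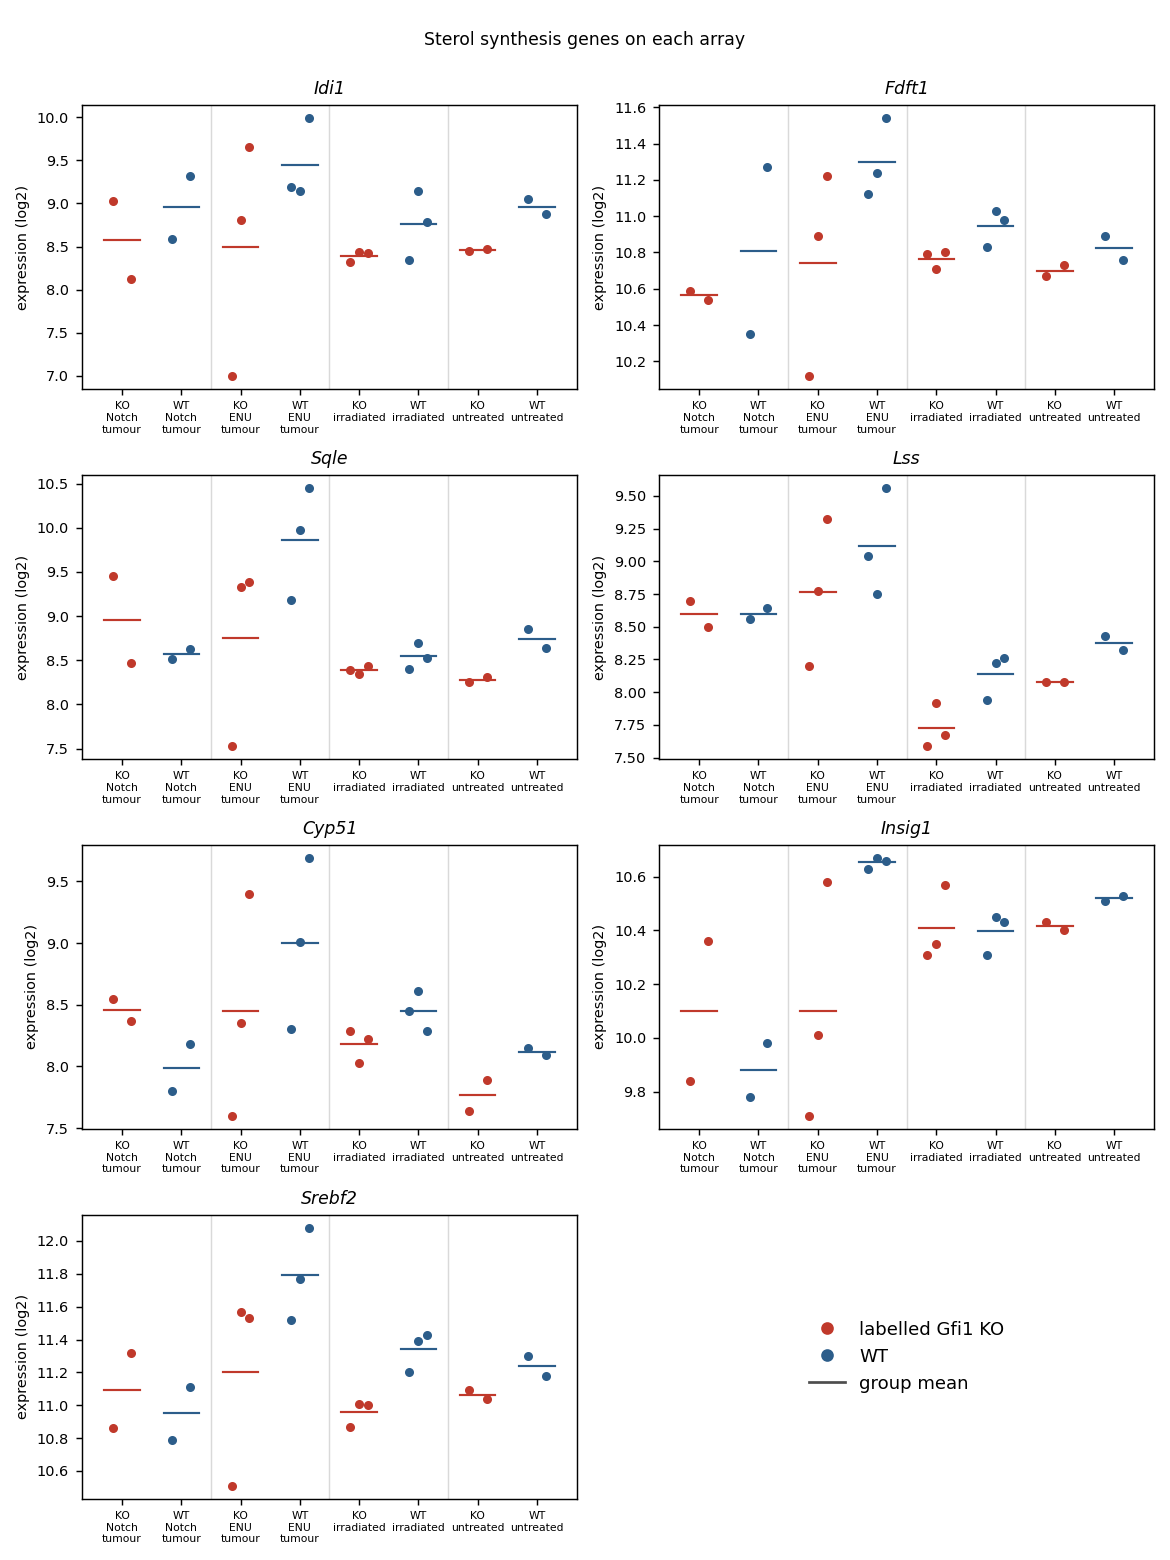
Expression (log2) of each of the 7 sterol genes on every array, one panel per gene, with groups along the x axis. Points are arrays, red for KO and blue for WT, and bars are group means. Untreated KO thymocytes lie below untreated WT thymocytes for all 7 genes, and KO ENU tumour 1 is the lowest tumour for all 7.

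Sqle read 8.25 and 8.31 in untreated KO thymocytes, against 8.85 and 8.64 in untreated WT thymocytes. The difference was -0.46 ± 0.12 (SE, adjusted p = 0.0156), and the lowest WT array lay above the highest KO array. Idi1 read 8.45 and 8.47 in KO and 9.05 and 8.88 in WT, the widest gap of the 7 genes. Its difference of -0.5 ± 0.173 missed the threshold (adjusted p = 0.0713). The Idi1 KO arrays agreed within 0.02 of each other while the WT arrays lay well above them.

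Cyp51, the lanosterol demethylase, read 7.64 and 7.89 in KO and 8.15 and 8.09 in WT (difference -0.35 ± 0.131, adjusted p = 0.0976). Lss, the cyclase, read 8.08 on both KO arrays and 8.43 and 8.32 on the WT arrays (-0.3 ± 0.132, adjusted p = 0.183). Neither gene overlapped between genotypes. The regulator Srebf2 read 11.09 and 11.04 in KO and 11.3 and 11.18 in WT (-0.18 ± 0.112, adjusted p = 0.398). Fdft1 and Insig1 had the smallest gaps, -0.13 ± 0.11 and -0.1 ± 0.113, with adjusted p-values of 0.573 and 0.681. The enzymes other than Fdft1 gave differences of -0.3 to -0.5, and the regulators Srebf2 and Insig1 gave -0.18 and -0.1.

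The Sqle call rested on few arrays. It was lost without KO array 1 (-0.43, adjusted p = 0.154), without KO array 2 (-0.5, adjusted p = 0.0802), without WT array 1 (-0.36, adjusted p = 0.218), and when all 20 arrays shared one estimate of the spread (adjusted p = 1).

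The single probe sets leaned the same way. Of the 9 Idi1 probe sets 9 were lower in untreated KO, as were 10 of 12 for Sqle, 18 of 21 for Lss, 10 of 13 for Cyp51, 21 of 23 for Srebf2, 5 of 5 for Fdft1 and 3 of 5 for Insig1. Probe sets of 1 gene read the same RNA and are not replicates. The less bright ones, below the 40th percentile on average, were 8 of 13 for Cyp51, 12 of 21 for Lss and 6 of 12 for Sqle, and none for Fdft1, Insig1 and Srebf2.

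**Figure D2:**
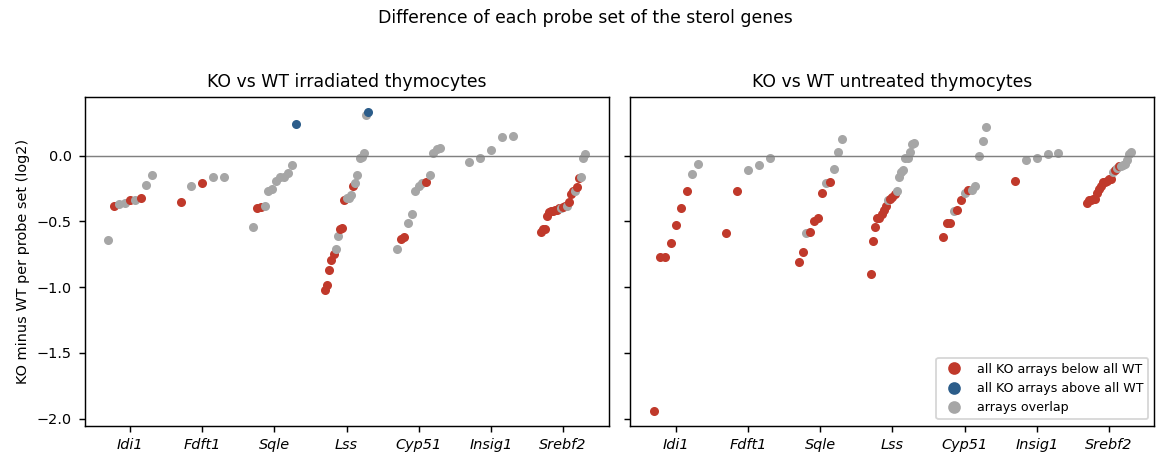
KO minus WT difference (log2) of each probe set of the 7 genes, in irradiated thymocytes (left) and untreated thymocytes (right). Each point is a probe set, red where every KO array lay below every WT array, blue where every KO array lay above, grey where arrays overlapped; in irradiated cells 17 of the 23 Srebf2 probe sets are red.

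Irradiated thymocytes gave the same genotype comparison after radiation, with 3 arrays each. Srebf2 and Lss passed the test, both lower in KO, by 1.3-fold and 1.33-fold. Of the 7 genes, 6 were below 0 and 4 had every KO array below every WT array. The median difference was -0.27, against -0.03 over all genes. Across all genes, 14.9% were called, 6.81% were called lower, 57.2% lay below 0 and 13.4% had KO wholly below WT.

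Srebf2 read 10.87, 11.01 and 11 in irradiated KO thymocytes, against 11.2, 11.39 and 11.43 in irradiated WT thymocytes. The difference was -0.38 ± 0.0919 (adjusted p = 0.0082), and it stayed below the threshold when each of the 6 arrays was left out in turn (adjusted p 0.00362 to 0.0444). With all 20 arrays in the fit it was not called (adjusted p = 0.871). The 23 probe sets of Srebf2 were lower in KO for 22, wholly so for 17.

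Lss read 7.59, 7.92 and 7.67 in irradiated KO and 7.94, 8.22 and 8.26 in irradiated WT. The difference was -0.41 ± 0.108 (adjusted p = 0.015), and the highest KO array lay just under the lowest WT array. The Lss call was lost without KO array 1 (adjusted p = 0.0753), KO array 3 (adjusted p = 0.0604), WT array 2 (adjusted p = 0.0625) or WT array 3 (adjusted p = 0.0702), and with all 20 arrays (adjusted p = 0.831).

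Cyp51 read 8.29, 8.03 and 8.22 in irradiated KO and 8.45, 8.61 and 8.29 in irradiated WT (-0.27 ± 0.107, adjusted p = 0.111). Fdft1 read 10.79, 10.71 and 10.8 in KO and 10.83, 11.03 and 10.98 in WT (-0.18 ± 0.0894, adjusted p = 0.229). Both genes met at the edge, the highest KO array at or just under the lowest WT array. Idi1 read 8.32, 8.44 and 8.43 in KO and 8.35, 9.14 and 8.78 in WT (-0.36 ± 0.141, adjusted p = 0.104). WT array 1 fell among the KO arrays for Idi1, and without it Idi1 was called lower (-0.57, adjusted p = 0.00356). Sqle overlapped in the same way, with 8.39, 8.34 and 8.43 in KO and 8.4, 8.7 and 8.53 in WT (-0.16 ± 0.098, adjusted p = 0.366). Insig1 was level, at 10.31, 10.35 and 10.57 in KO and 10.31, 10.45 and 10.43 in WT, a difference of 0.01 with a 95% interval of -0.18 to 0.21.

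A mean KO effect over untreated and irradiated thymocytes was added after the values were seen. It called 5 of the 7 genes, each lower in KO. Lss differed by -0.35 ± 0.0855 (adjusted p = 0.00612), Sqle by -0.31 ± 0.0774 (adjusted p = 0.00761) and Idi1 by -0.43 ± 0.112 (adjusted p = 0.00941). Srebf2 differed by -0.28 ± 0.0726 (adjusted p = 0.0102) and Cyp51 by -0.31 ± 0.0845 (adjusted p = 0.0132). Fdft1 (-0.15, adjusted p = 0.154) and Insig1 (-0.05, adjusted p = 0.75) were not called. Of all genes, 57.8% lay below 0, 21% were called and 10.5% were called lower. Without untreated WT array 1 only Lss of the 7 was called, and with all 20 arrays in the fit none was. The 2 genotype comparisons in thymocytes share no arrays, but they share the estimate of the spread. The Gfi1 probe sets that fell differed between irradiated and untreated KO mice, so the mean may join unlike KO groups.

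**Figure D3:**
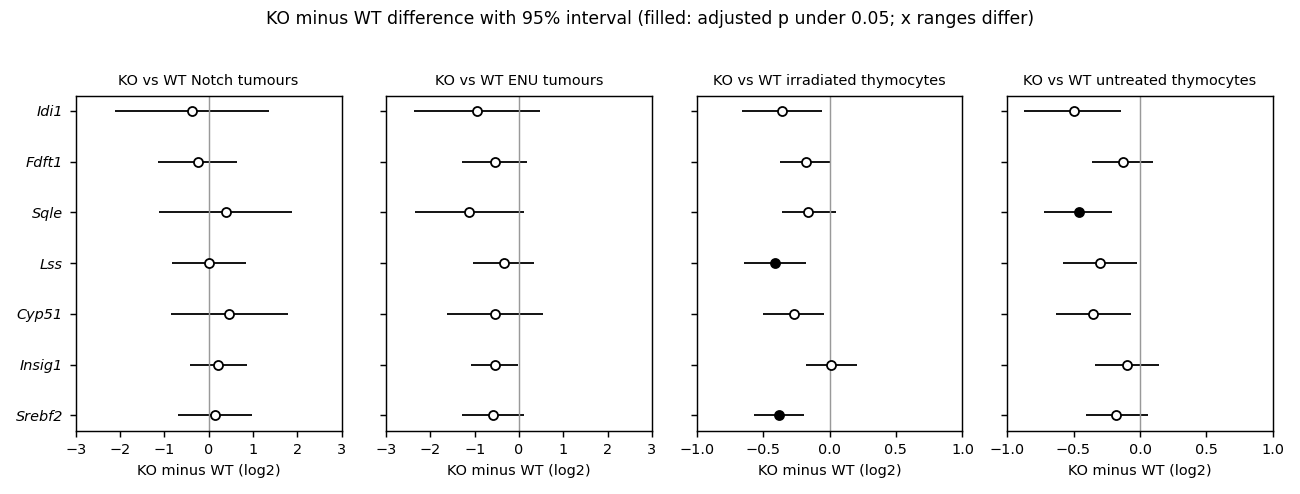
KO minus WT difference (log2, x axis) of each sterol gene with its 95% interval in Notch tumours, ENU tumours, irradiated thymocytes and untreated thymocytes, from left to right. Filled points have an adjusted p below 0.05: Srebf2 and Lss in irradiated and Sqle in untreated thymocytes; the tumour panels have a wider x range and wider intervals.

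Markers of other cells and of division moved with genotype in the same arrays. Proliferation genes averaged 10.82 to 10.83 in irradiated KO and 11.01 to 11.22 in irradiated WT, and 10.85 to 10.86 in untreated KO and 10.98 to 11.12 in untreated WT. All 15 proliferation genes were below 0 in irradiated KO, 5 of them called lower, and 13 of 15 in untreated KO, 1 called lower. Over the 10 thymocyte arrays, the mean of the 7 sterol genes followed the proliferation level with r = 0.96 and rho = 0.9, and with r = 0.93 after each group's mean was removed. Both means come from the same arrays and share their scaling. With the granulocyte, erythroid, macrophage and dendritic cell, B-cell and thymocyte marker levels, the sterol mean had r = 0.81, -0.79, -0.5, -0.33 and 0.15. Within groups these were 0.36, -0.4, 0.25, 0.33 and 0.27.

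Granulocyte markers averaged 6.98 to 7.03 in irradiated KO and 8.05 to 8.21 in irradiated WT, and 6.83 to 6.91 in untreated KO and 9.39 to 9.56 in untreated WT. In both comparisons 7 of 8 were called lower in KO. Macrophage and dendritic cell markers were called higher in KO for 5 of 7 after irradiation and 4 of 7 without it, and erythroid markers for 2 of 4 and 3 of 4. B-cell markers were called higher for 3 of 5 and lower for 1 in irradiated KO, and higher for 2 of 5 in untreated KO. Thymocyte markers were called lower for 3 of 11 in irradiated KO and for 0 of 11 in untreated KO. Of the hepatocyte markers, Alb (2.03, adjusted p = 7.81e-07) and Afp (0.84, adjusted p = 0.00027) were called higher in untreated KO. Apoa1 and Fgb were not, and none was called in irradiated KO. Of the thymic stroma markers, Epcam was called higher in untreated (0.74) and irradiated KO (0.68) and Pdgfrb in untreated KO (0.42), and the others were not called. The part of these cells or of cycling in the sterol gene differences was not tested.

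**Figure D4:**
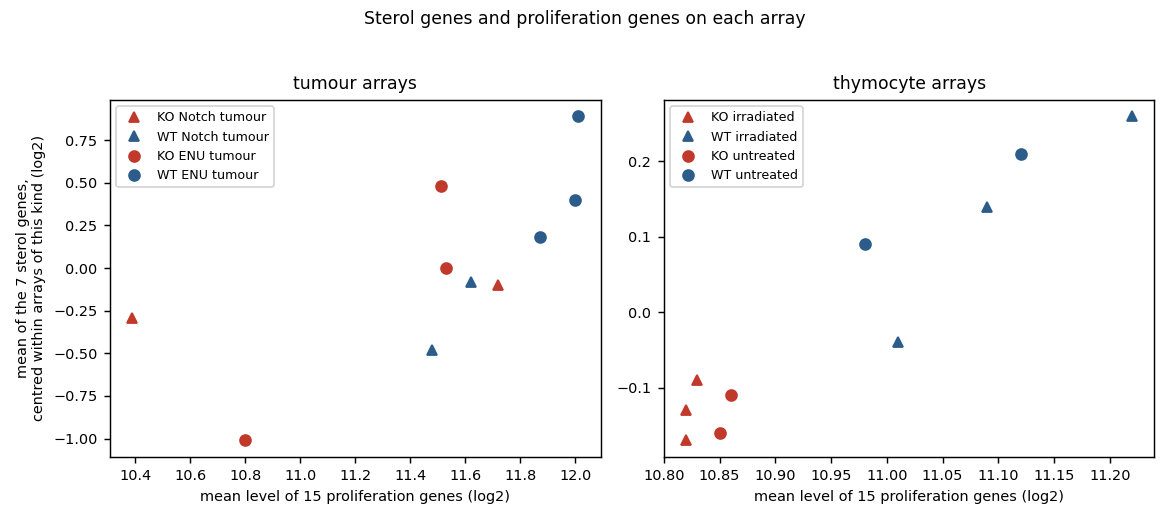
Mean of the 7 sterol genes (y axis, log2, centred within tumours or within thymocytes) against the mean level of 15 proliferation genes (x axis, log2) on each array, tumours on the left and thymocytes on the right. Red is KO and blue is WT; in thymocytes the 5 KO arrays sit at the lower left, below every WT array on both axes.

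Most of the other enzymes of the pathway were not called. Of 12 other sterol synthesis enzymes, 1 was called lower in untreated KO, Tm7sf2, a sterol reductase (-0.42, adjusted p = 0.036), and the list's median difference was 0. In irradiated KO, 2 were called lower. These were Dhcr7, which makes the last step to cholesterol (-0.4, adjusted p = 0.00782), and Nsdhl, which works after Cyp51 (-0.3, adjusted p = 0.0324), with a list median of -0.11. None was called higher in either comparison.

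Of 9 other regulators, none was called in untreated KO, and Erlin1, a cholesterol-binding protein of the endoplasmic reticulum, was called lower in irradiated KO (-0.47, adjusted p = 0.00451). Scap, the SREBP escort, differed by 0.04 in untreated and -0.11 in irradiated cells (adjusted p 0.894 and 0.548). Insig2, the close relative of Insig1, differed by -0.13 and 0.01 (adjusted p 0.594 and 0.969). Srebf1, whose product favours fatty acid genes, differed by -0.16 and -0.22 (adjusted p 0.399 and 0.104).

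Of 12 uptake and transport genes, Stard3, a sterol carrier of late endosomes, was called lower in untreated KO (-0.48, adjusted p = 0.008). In irradiated KO, Scarb1, a high-density lipoprotein receptor, was called lower (-0.48, adjusted p = 0.00617), and Lipa, the lysosomal lipase that frees cholesterol from its esters, was called higher (0.42, adjusted p = 0.00356). Among efflux and storage genes, Soat1, which esterifies cholesterol, was called lower in untreated (-0.39, adjusted p = 0.0412) and irradiated KO (-0.75, adjusted p = 2.92e-05). The efflux pump Abca1 was called lower in irradiated KO (-0.37, adjusted p = 0.0221). Rxra, the partner of the sterol sensing LXR receptors, was called higher in untreated KO (0.78, adjusted p = 8.32e-05).

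Fatty acid genes went both ways. Of 12 tested, 3 were called higher and 3 lower in untreated KO, and 1 higher and 4 lower in irradiated KO. Scd1, the stearoyl-CoA desaturase, was called higher in both (0.87, adjusted p = 5.08e-05 untreated and 0.7, adjusted p = 4.19e-05 irradiated). Fads2, a desaturase of polyunsaturated fatty acids, was called lower in both (-0.53, adjusted p = 0.00624 and -0.69, adjusted p = 5.96e-05), as was the elongase Elovl6 (-0.65, adjusted p = 0.00281 and -0.46, adjusted p = 0.00714). The synthase Fasn was called higher in untreated KO (0.49, adjusted p = 0.00944), and Acss2, which makes acetyl-CoA from acetate, was called lower in irradiated KO (-0.49, adjusted p = 0.00198). Of 14 genes of the isoprenoid branch, none was called in untreated KO and 3 were called higher in irradiated KO. These were the subunits Rabggtb (0.51, adjusted p = 0.00121) and Rabggta (0.4, adjusted p = 0.00494) of the enzyme that prenylates Rab proteins, and Nus1 (0.45, adjusted p = 0.00832), needed to make dolichol.

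Cyp51 was higher in irradiated than in untreated thymocytes of both genotypes. In KO thymocytes Cyp51 read 8.29, 8.03 and 8.22 irradiated, against 7.64 and 7.89 untreated, a rise of 0.42 ± 0.119 (adjusted p = 0.0116, 1.33-fold). In WT thymocytes it read 8.45, 8.61 and 8.29 irradiated, against 8.15 and 8.09 untreated, a rise of 0.34 ± 0.119 (adjusted p = 0.0391, 1.26-fold). In both genotypes every irradiated array lay above every untreated one, and the share of all genes that did so was not counted. Lss fell in KO, to 7.59, 7.92 and 7.67 irradiated, against 8.08 on both untreated arrays (-0.35 ± 0.121, adjusted p = 0.0302). In WT, Lss read 7.94, 8.22 and 8.26 irradiated and 8.43 and 8.32 untreated (-0.24, adjusted p = 0.138).

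These calls stand in a comparison where many genes were called. Of all genes, 38.8% were called in KO, 15.1% higher and 23.7% lower, and 34.6% were called in WT, 13% higher. With 2 of 7 sterol genes called in KO and 1 of 7 in WT, their share was near that background. The KO Cyp51 call was lost without untreated KO array 1 (0.29, adjusted p = 0.201), the KO Lss call without irradiated array 1 or 3 or untreated array 1 or 2, and the WT Cyp51 call without irradiated array 1 or 2 or untreated array 1 or 2 (adjusted p 0.073 to 0.171), as well as without the filter on low genes (adjusted p = 0.0593) and with the replicate number as a block (adjusted p = 0.051).

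The other sterol genes moved by less. In KO the differences of Sqle (0.11), Fdft1 (0.07), Insig1 (-0.01), Idi1 (-0.07) and Srebf2 (-0.1) were not called. In WT, Fdft1 (0.12), Srebf2 (0.1), Insig1 (-0.12), Sqle (-0.2) and Idi1 (-0.21) were not called either. No difference between the genotypes in the response was called for the 7 genes by limma's interaction test. Sqle had the smallest p, with a response 0.31 higher in KO than in WT (95% interval -0.02 to 0.64, unadjusted p = 0.0631, adjusted p = 0.428). The others differed by -0.2 for Srebf2 to 0.14 for Idi1. Of all genes, 1.88% were called in that test. The irradiated and untreated KO mice differ in their Gfi1 probe sets, which limits the KO side of this comparison.

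Other sterol enzymes were called in both directions between irradiated and untreated thymocytes. In KO, 5 of 12 fell and 1 rose, led by Dhcr7 (-0.9, adjusted p = 6.96e-06), Sc4mol, a demethylase after Cyp51 (-0.7, adjusted p = 0.000425), Sc5d, a desaturase (-0.39, adjusted p = 0.00737), and Mvd, which works before Idi1 (-0.45, adjusted p = 0.00773). In WT, 3 fell and 1 rose: Sc4mol (-0.81, adjusted p = 0.00013), Sc5d (-0.36, adjusted p = 0.013) and Dhcr7 (-0.33, adjusted p = 0.0257) fell, and Hsd17b7, a reductase of the same step as Sc4mol, rose (0.42, adjusted p = 0.0107). Insig2 fell in WT (-0.39, adjusted p = 0.0077) and differed by -0.26 in KO (adjusted p = 0.0585). Scap rose in WT (0.32, adjusted p = 0.027) and differed by 0.17 in KO (adjusted p = 0.217). Srebf1 differed by 0.01 in WT and -0.04 in KO (adjusted p 0.926 and 0.747). Markers of several cell types differed in the same comparison. Macrophage and dendritic cell markers were called lower in irradiated cells for 6 of 7 in both genotypes and B-cell markers for 4 of 5. Thymocyte markers were called lower for 7 of 11 and higher for 1 in KO, and lower for 6 of 11 in WT. Granulocyte markers were called lower for 1 of 8 and higher for 1 in KO, and lower for 6 of 8 and higher for 2 in WT. The part of these markers in the sterol values was not tested.

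Tumours varied far more than thymocytes. The range over the 10 tumours went from 0.95 for Insig1 to 2.99 for Idi1, against 0.26 for Insig1 to 0.98 for Cyp51 over the 10 thymocyte arrays. Without KO ENU tumour 1 the tumour range went from 0.89 for Insig1 to 1.98 for Sqle, with 1.86 for Idi1. KO ENU tumour 1 was the lowest of the 10 for all 7 genes, and WT ENU tumour 3 the highest for 6, Insig1 being highest in WT ENU tumour 2. WT ENU tumours had the highest group mean of the 8 groups for each of the 7 genes. Only for Insig1 did every WT ENU tumour lie above every array of the other 7 groups. For the other 6 genes the WT ENU tumours overlapped arrays of 1 to 3 other groups, labelled KO ENU tumours among them each time. The share of all genes highest in WT ENU tumours, by mean or on every array, was not counted. The rank was not particular to the 7 genes. Proliferation genes (11.96), fatty acid genes (10.15) and the isoprenoid branch (9.77) also had their highest group mean there. Efflux and LXR genes had theirs in labelled KO ENU tumours (9.4). The 7 genes move together across tumours, so their shared rank is not 7 separate results.

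**Figure D5:**
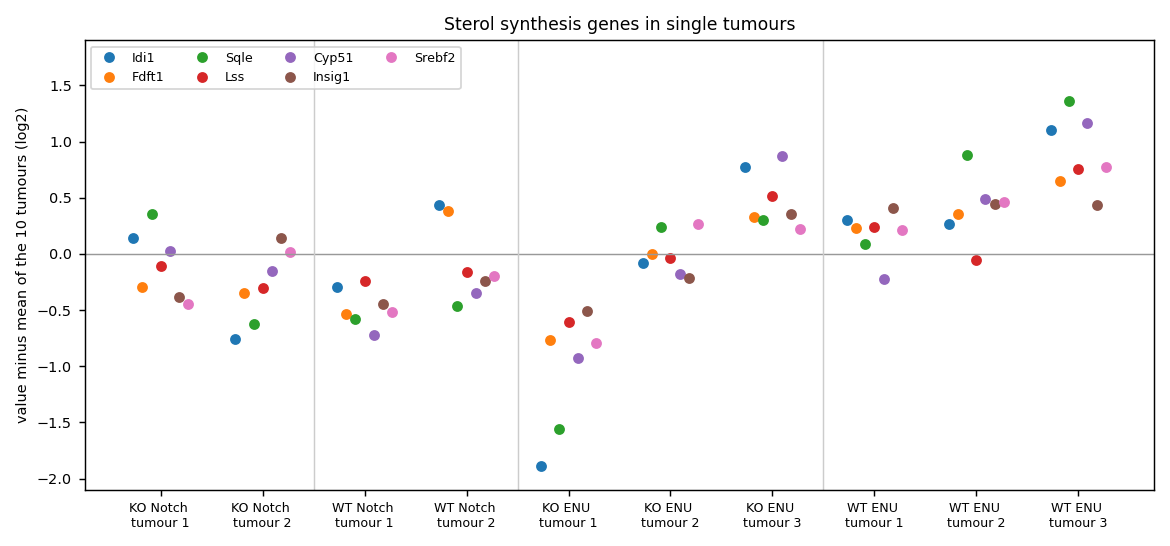
Value of each sterol gene in each tumour minus that gene's mean over the 10 tumours (log2, y axis), tumours along the x axis. Each point is a gene; the 7 genes lie together within most tumours, from a mean of -1.01 in KO ENU tumour 1 to 0.89 in WT ENU tumour 3.

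In ENU tumours, none of the 7 genes was called between labelled KO and WT, although all 7 were below 0. The median was -0.55, against -0.07 over all 13025 genes, of which 57% were below 0. Of all genes, 0% were called by limma, and 1782 had an unadjusted p below 0.05. The fit with all 20 arrays called 679 genes.

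Sqle read 7.53, 9.33 and 9.39 in KO ENU tumours and 9.18, 9.97 and 10.45 in WT ENU tumours (-1.12 ± 0.538, adjusted p = 0.37). Idi1 read 7, 8.81 and 9.66 in KO and 9.19, 9.15 and 9.99 in WT (-0.95 ± 0.623, adjusted p = 0.437). In both genes KO tumour 1 was far below the rest and the other KO tumours overlapped WT. Insig1 alone had every KO tumour below every WT tumour, at 9.71, 10.01 and 10.58 against 10.63, 10.67 and 10.66 (-0.55 ± 0.23, unadjusted p = 0.0422, adjusted p = 0.363). The share of all genes separated in that way was not counted for ENU tumours. Srebf2 read 10.51, 11.57 and 11.53 in KO and 11.52, 11.77 and 12.08 in WT (-0.59 ± 0.301, adjusted p = 0.379). Cyp51, Fdft1 and Lss differed by -0.55, -0.55 and -0.35 with overlapping tumours.

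Without KO tumour 1 the differences were -0.51 for Sqle, -0.36 for Insig1, -0.24 for Srebf2, -0.24 for Fdft1, -0.21 for Idi1, -0.12 for Cyp51 and -0.07 for Lss (adjusted p 0.738 to 0.933). That tumour's proliferation level was 10.8, against 11.51 to 11.53 in the other KO ENU tumours and 11.87 to 12.01 in WT ENU tumours. Its macrophage and dendritic cell level was 10.57, against 8.79 to 9 in WT ENU tumours. The part of either in the sterol values was not tested.

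In Notch tumours no sterol gene was called between KO and WT, and the directions were mixed. Cyp51 read 8.55 and 8.37 in KO and 7.8 and 8.18 in WT (0.47, 95% interval -0.85 to 1.79), the only sterol gene with KO wholly above WT. How many of all genes had KO wholly above WT was not counted. Fdft1 read 10.59 and 10.54 in KO and 10.35 and 11.27 in WT (-0.25, -1.14 to 0.64). The 2 WT tumours spanned almost a doubling for Fdft1 and enclosed both KO tumours. Sqle read 9.45 and 8.47 in KO and 8.51 and 8.63 in WT (0.39, -1.12 to 1.89), and Idi1 read 9.03 and 8.13 in KO and 8.59 and 9.32 in WT (-0.38, -2.12 to 1.36). Srebf2 (0.14), Insig1 (0.22) and Lss (0) overlapped as well. These intervals leave differences of 2-fold in either direction unresolved for Sqle and Idi1. Over all genes 0.0154% were called, 2 genes in number, and 780 had an unadjusted p below 0.05. Without KO Notch tumour 1, which leaves KO Notch tumour 2 alone on the KO side, 1066 genes were called and no sterol gene was.

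KO Notch tumour 2 is the tumour with B-cell markers. Without it Sqle differed by 0.88, Cyp51 by 0.56, Lss by 0.11, Idi1 by 0.07, Insig1 by -0.04, Srebf2 by -0.09 and Fdft1 by -0.23, none called. The KO effect was higher in Notch than in ENU tumours for all 7 genes, by 0.3 for Fdft1 to 1.5 for Sqle. Without KO ENU tumour 1 it stayed higher for 5, by 0.07 for Lss to 0.9 for Sqle, and turned for Idi1 (-0.17) and Fdft1 (-0.01). Without WT Notch tumour 1 it also turned for Fdft1 (-0.16). Without KO Notch tumour 2 it stayed higher for all 7, by 0.33 for Fdft1 to 2 for Sqle. With all 10 tumours none of the 7 was called (adjusted p 0.706 to 0.9), with 0% of all genes called in that test and 934 at an unadjusted p below 0.05.

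WT tumours with the Notch transgene were lower than WT ENU tumours for all 7 genes. In Cyp51, Insig1, Lss, Sqle and Srebf2 every Notch tumour lay below every ENU tumour, against 21.8% of all genes. Sqle read 8.51 and 8.63 in WT Notch tumours and 9.18, 9.97 and 10.45 in WT ENU tumours (-1.29 ± 0.602). Insig1 read 9.78 and 9.98 in Notch and 10.63, 10.67 and 10.66 in ENU tumours (-0.77 ± 0.258, unadjusted p = 0.0163). Srebf2 read 10.79 and 11.11 in Notch and 11.52, 11.77 and 12.08 in ENU tumours (-0.84 ± 0.337, unadjusted p = 0.0356). None of the 7 was called (adjusted p 0.567 to 0.875), and over all genes 0.023% were called, 3 in number, with 967 at an unadjusted p below 0.05. The median of the 7 was -0.77, against -0.04 over all genes. The proliferation level was 11.48 to 11.62 in WT Notch and 11.87 to 12.01 in WT ENU tumours, and its part was not tested.

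Against untreated WT thymocytes, WT ENU tumours were higher for all 7 genes, with every tumour above every thymocyte array. That held for 27.9% of all 13520 genes. Sqle differed by 1.12 ± 0.457 (adjusted p = 0.0988), Cyp51 by 0.88 ± 0.404 (adjusted p = 0.141), Lss by 0.74 ± 0.262 (adjusted p = 0.0599) and Srebf2 by 0.55 ± 0.256 (adjusted p = 0.148). Idi1, Fdft1 and Insig1 differed by 0.48, 0.47 and 0.13. None was called, with 20.1% of all genes called. Without WT ENU tumour 1, Cyp51 (1.23, adjusted p = 0.0449) and Sqle (1.47, adjusted p = 0.0427) were called, and without WT ENU tumour 2, Lss was (0.93, adjusted p = 0.032). All 15 proliferation genes were above 0 in the same comparison, 6 of them called higher, and their part was not tested.

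In WT Notch tumours the same comparison had mixed signs. Insig1 was lower in every WT Notch tumour than in every untreated WT thymocyte array (-0.64 ± 0.216, adjusted p = 0.086). The share of all genes that did so was not counted. The other 6 genes differed by -0.29 for Srebf2 to 0.22 for Lss, with none called and 7.68% of all genes called. ENU and Notch tumours share the untreated WT arrays in these comparisons.

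Other sterol genes in the tumour comparisons included Mvk, the mevalonate kinase, called higher in WT ENU tumours (0.44, adjusted p = 0.0492). Scap (0.45, adjusted p = 0.0466) and Erlin1 (0.63, adjusted p = 0.0151) were also called higher. Among uptake genes, Lrp1 (1.92, adjusted p = 0.00152) and Scarb1 (1.27, adjusted p = 0.00306), both lipoprotein receptors, were called higher, while Lipa (-1.27, adjusted p = 0.00523) and Mylip (-1.35, adjusted p = 0.00178), a ubiquitin ligase, were called lower. Soat2, an enzyme that esterifies cholesterol, was called higher (2.34, adjusted p = 0.000229), as were Fasn (1.4, adjusted p = 0.00225) and Rxra (0.74). Soat2 did not pass the filter for low genes on the thymocyte arrays. It entered this test through the tumours, so the filter favoured a call in that direction. In WT Notch tumours, Mylip (-1.04, adjusted p = 0.0282), Abca1 (-2.07, adjusted p = 0.0347) and Srebf1 (-0.45, adjusted p = 0.0494) were called lower and Fasn higher (1.2, adjusted p = 0.0211). Some of these calls were narrow: Mvk kept its call in 3 of 13 alternatives, Scap in 4 of 13, Srebf1 in 5 of 12 and, in untreated KO thymocytes, Tm7sf2 in 3 of 10 and Soat1 in 5 of 12.

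The 7 genes moved together from tumour to tumour. Over the 10 tumours the 21 pairs of genes had Pearson correlations of 0.61 to 0.89, with a median of 0.81, and of 0.36 to 0.91 after group means were removed. Without KO ENU tumour 1 they were 0.47 to 0.86, and without that tumour and KO Notch tumour 2 they were 0.59 to 0.87. Over the 10 thymocyte arrays they were -0.09 to 0.89, with a median of 0.55 and 19 of 21 above 0. Arrays of one class share scaling and groups, so these values are descriptions. The mean of the 7 genes followed the proliferation level in tumours with r = 0.7 and rho = 0.73, and with r = 0.58 after each group's mean was removed. Without KO ENU tumour 1 these were r = 0.58, rho = 0.67 and, within groups, r = 0.3. Without that tumour and KO Notch tumour 2 they were r = 0.66, rho = 0.55 and, within groups, r = 0.69. The macrophage and dendritic cell level gave r = -0.49 and, within groups, r = -0.82. Without KO ENU tumour 1 it gave r = 0.1 and, within groups, r = -0.27. Without that tumour and KO Notch tumour 2 it gave r = 0.62 and, within groups, r = -0.24. The thymocyte, erythroid and B-cell levels gave r = 0.5, -0.4 and -0.13 over the tumours, and 0.38, -0.5 and 0.25 within groups. Without KO ENU tumour 1 these were 0.49, -0.08 and -0.3, and 0.27, -0.6 and 0.03 within groups. Without that tumour and KO Notch tumour 2 they were 0.4, -0.02 and 0.04, and 0.19, -0.63 and 0.68 within groups. With the granulocyte marker level the mean of the 7 genes had r = -0.85 and rho = -0.94 over the tumours. Without KO ENU tumour 1 it had r = -0.76 and rho = -0.95. Within groups the values were r = -0.86 and, without KO ENU tumour 1, r = -0.53. Without both KO ENU tumour 1 and KO Notch tumour 2 they were r = -0.9, rho = -0.95 and, within groups, r = -0.87. Over the thymocyte arrays the sign was opposite, with r = 0.81, rho = 0.73 and, within groups, r = 0.36. Of the granulocyte markers, S100a8, S100a9, Ngp, Ltf and Mmp8 did not pass the filter for low genes on the tumour arrays. The granulocyte level in tumours is thus mostly low signal.

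Genes outside the set were ranked by the smaller of their correlations with the mean of the 7, one over 10 thymocyte arrays and one over 10 tumours. Of 13520 genes, Idi1 (0.92), Sqle (0.91) and Srebf2 (0.89) came first, as part of the mean itself. Cyp51 (0.55) and Insig1 (0.46) had the lowest values of the 7, both set by the thymocyte arrays. Over the tumours alone they had r = 0.93 and r = 0.82. Outside the set, Fancb (0.86), a Fanconi anaemia repair gene, Pms2 (0.85), a mismatch repair gene, and Xpot (0.84), which exports transfer RNA, came next. They were followed by Fusip1 (0.8), Psmd5 (0.8), Emid1 (0.79), Stard4 (0.79) and Alg6 (0.79). Alg6 did not pass the filter for low genes on the thymocyte arrays, so its correlation there rests on low values. Stard4 encodes a sterol transfer protein that is itself a known SREBP-2 target.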

How the data were processed

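RNA was amplified with NuGEN's Ovation Pico system, biotin-labelled and hybridised to 1-colour exon arrays, per the labels' protocols. The authors deposited 1 table of log2 values per probe set (3.37 to 15.01, array medians 9.08 to 9.27). The log base was read from the values, and the sources used here do not give the background correction, normalization or probe summary. The number of arrays limits the precision.

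Gene names came from the platform annotation: 167016 probe sets had 1 gene, 3388 several and 11654 none. Probe sets were centred on their mean over 20 arrays, the median per gene was taken and the mean added back. Genes above the 40th percentile on at least 2 arrays of a fit were tested with limma 3.58.1 (R 4.3.3; lmFit, eBayes), fitted on the 10 thymocyte arrays, the 10 tumours or, for tumours against thymocytes, all 20, with Benjamini-Hochberg adjustment at 0.05. The steps were tested on simulated data. Replicate numbers did not pair samples (correlations of deviations -0.46 to 0.2). From each of 6 pathway lists, up to 4 called genes with the smallest p were eligible to be named. Members and lists were chosen with earlier results of these data known. Alternatives changed the normalization (quantile), filter, probe summary, arrays fitted, variance model, replicate block or left out 1 array. Some genes of the pathway are not reported here.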

Additional observations from a re-analysis of the deposited data

Results flagged for a closer look

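For 2 lipid genes outside the sterol set, the irradiation response differed between genotypes by limma's interaction test. The response of Rxra, the receptor partner of LXR, was -0.64 ± 0.14 in KO relative to WT thymocytes (adjusted p = 0.022), and the call was kept in 10 of 17 alternatives. The response of Fasn, the fatty acid synthase, was -0.63 ± 0.151 in KO relative to WT (adjusted p = 0.0422), and the call was kept in 6 of 18 alternatives. Irradiated and untreated KO mice differ in which Gfi1 probe sets fell, and the part of this was not tested.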

How the results depend on the processing

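Counts of called sterol genes were small and depended on settings. The fit with all 20 arrays called 0 in every thymocyte comparison, against 1 in KO against WT untreated, 2 in KO against WT irradiated, 2 and 1 for irradiation in KO and WT, and 5 for the mean KO effect, and over all genes it called 115 in place of 1566 for untreated and 148 in place of 1903 for irradiated KO. Fitted on the compared groups alone, WT Notch tumours against untreated WT thymocytes gave 1 in place of 0. The 60th percentile filter and leaving out dim probe sets, which no longer test some of Cyp51, Lss and Sqle, gave 0 and 0 for untreated KO, 1 and 1 for irradiated KO, 0 and 0 for each irradiation comparison, and 2 and 1 for the mean KO effect; without dim probe sets WT ENU tumours against untreated WT thymocytes gave 1 (Lss). The mean of probe sets gave 2 for untreated KO, adding Idi1 (-0.61, adjusted p = 0.0117). Without the filter on low genes, and with the replicate block, irradiation in WT gave 0 in place of 1, and the block changed no other such count. Leaving out 1 array gave 1 to 3 for irradiated KO, 0 to 1 for untreated KO, 0 to 2 for irradiation in KO and in WT, 0 to 2 for WT ENU tumours against thymocytes and 1 to 5 for the mean KO effect. The causes were not tested. Over all genes, the fit with all 20 arrays called 679 in KO against WT ENU tumours in place of 0, 184 in KO against WT Notch tumours in place of 2, 270 in WT Notch against WT ENU tumours in place of 3, 126 in place of 0 for the difference of KO effects, 772 in place of 4946 and 548 in place of 4413 for irradiation in KO and WT, 6 in place of 240 for the difference in response and 347 in place of 2672 for the mean KO effect. Fitted on its own groups, WT Notch tumours against thymocytes gave 1900 in place of 1038.

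Signs turned for differences that were not called, except that of Cyp46a1. With quantile normalization these were WT Notch tumours against thymocytes for Fdft1 and Idi1 (0.01 each) and irradiation in KO for Insig1 (0.02). With the mean of probe sets they were the Cyp51 difference in response (-0.02), irradiation in KO for Idi1 (0.04) and Insig1 (0.01), the mean KO effect for Insig1 (0) and irradiated KO for Insig2 (-0.07). Without dim probe sets they were WT Notch tumours against thymocytes for Cyp51 (0.02) and Idi1 (0.01), KO Notch tumours for Lss (-0.04) and the called Cyp46a1 in WT ENU tumours (-0.19). With the replicate block it was irradiation in WT for Srebf1 (-0.01). Leaving out 1 array spanned 0 in KO Notch tumours for Fdft1 (-0.71 to 0.21), Idi1 (-0.83 to 0.07), Insig1 (-0.04 to 0.48), Lss (-0.1 to 0.11), Sqle (-0.1 to 0.88) and Srebf2 (-0.09 to 0.37). It also did in WT Notch tumours against thymocytes for Cyp51 (-0.32 to 0.07), Fdft1 (-0.47 to 0.45) and Idi1 (-0.37 to 0.36), and in the difference of KO effects for Fdft1 (-0.16 to 0.76) and Idi1 (-0.17 to 1.16). In thymocytes it did for the difference in response of Cyp51 (-0.05 to 0.21), Fdft1 (-0.12 to 0.02) and Idi1 (-0.06 to 0.33), and for Insig1 in irradiated KO (-0.07 to 0.06) and irradiation in KO (-0.09 to 0.04), for Insig2 in irradiated KO (-0.05 to 0.08), Scap in untreated KO (-0.04 to 0.13) and Srebf1 for irradiation in WT (-0.01 to 0.06).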
